A study of Mus musculus with 93 samples.

Results

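The genes described here encode the proteins of the mitochondrial ribosome. They were chosen by symbol, as the protein-coding genes whose symbol starts with Mrpl or Mrps and a number, and which had at least 10 counts in at least 5 mice. Of 53465 genes in the liver count table, 83 had such a symbol, 5 of these were pseudogenes, and 77 of the 78 protein-coding ones passed the count rule, out of 19235 genes in all that passed it. The exception was Mrpl53, which had 0 counts in every mouse, and 88.0% of whose exonic bases are shared with Gm42688 on the same strand. Of the 77 genes, 50 encode proteins of the large subunit and 26 of the small subunit, with Mrps18a and Mrps30 counted as large subunit proteins, where they are known to sit. The last, Mrps36, carries a ribosomal name but is now known as a subunit of the alpha-ketoglutarate dehydrogenase complex. All 77 were among the 19110 genes tested, and the lowest count of any of them in any mouse was 158.

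The mitochondrial ribosome translates the few proteins encoded by mitochondrial DNA, all of them core subunits of the respiratory chain or of ATP synthase. Its rRNAs come from mitochondrial DNA, but every one of its proteins is encoded in the nucleus, made in the cytosol and imported. Part of the proteins descend from those of bacterial ribosomes (46 of the 77 genes here) and the rest are specific to mitochondria (30, leaving out Mrps36). Hepatocytes are rich in mitochondria, and the nuclear genes for mitochondrial translation are known targets of the transcription factors NRF1, GABP and YY1.

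Livers came from 93 male mice of 7 inbred strains, C57BL/6J, DBA/2J, A/J and 129S1/SvImJ, which are laboratory strains, and WSB/EiJ, CAST/EiJ and PWK/PhJ, which are wild-derived. Every mouse was housed at 30 °C (thermoneutrality) from 6 weeks of age and was fed, from 7 weeks of age, either a western-style diet (WD, 40% of energy from fat) or a matched control diet (CD, 10% of energy from fat). The diets were fed for 17 weeks, and livers were taken at 24 weeks of age. There were 14 groups of 5 to 8 mice, with 8 and 8 C57BL/6J on CD and on WD, 6 and 7 DBA/2J, 5 and 6 A/J, 7 and 6 129S1/SvImJ, 6 and 6 WSB/EiJ, 7 and 8 CAST/EiJ, and 6 and 7 PWK/PhJ. The mice of a strain came from 2 cohorts, or 3 in CAST/EiJ. Levels are given as CPM, the reads on a gene relative to the reads on all tested genes, after scaling with TMM factors, which set the bulk of genes equal between mice.

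Each mouse had between 40020424 and 49894856 reads on genes, with RNA integrity numbers (RIN) of 7.0 to 9.7. All strains were mapped to the C57BL/6J genome, and the share of reads that did not map differed by strain, from 1.66 to 2.60% in C57BL/6J on CD to 8.93 to 13.9% in CAST/EiJ on CD. The TMM factors ranged from 0.810 to 1.27. One PWK/PhJ mouse on CD had the lowest leukocyte and Kupffer cell marker sums of its group, and 1 C57BL/6J mouse on each diet had the highest cholangiocyte marker sum of its group, so counts were repeated without them.

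Of the 77 genes, 68 had promoter sequences in the RefSeq table for GRCm38.p6 (250 bases before to 50 bases after the start), and 3 motifs were searched on both strands. The NRF1 core GCGCATGCG was found in 7 of the 68 genes (10.3%) and in 1.95% of all 27025 genes of the table. The ETS motif CCGGAAGT, which GABP binds, was found in 12 (17.6%) and in 4.31% of all genes, and the YY1 motif AAGATGGCG in 8 (11.8%) and in 1.64%. At least 1 of the 3 was present in 26 of the 68 genes (38.2%) and in 7.48% of all genes. The 120 bases before the start are printed here for 5 genes chosen for having both a motif in that stretch and a diet effect described below. Other genes with large diet effects, Mrps16, Mrpl14, Mrpl50, Mrpl34 and Mrps17 among them, had none of the motifs in the 250 bases before the start. Mrpl15 had no promoter sequence. Mrps26 had the second largest decrease on WD in PWK/PhJ, Mrps22 and Mrps27 were among the largest in 129S1/SvImJ and WSB/EiJ, and Mrpl22 and Mrpl32 were among the 8 genes whose diet effect differed most between strains. The sequences read 5′ to 3′ along each gene, with the motifs in capitals. Those of Mrpl22 and Mrpl32 are the NRF1 core (in Mrpl32 with a pair of overlapping matches on opposite strands and a further match) and the other 3 are the ETS motif.
Mrps26, chr2:130563637-130563756, plus strand: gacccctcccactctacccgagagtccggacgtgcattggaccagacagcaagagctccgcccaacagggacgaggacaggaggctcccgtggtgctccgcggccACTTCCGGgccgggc
Mrps22, chr9:98601680-98601799, minus strand: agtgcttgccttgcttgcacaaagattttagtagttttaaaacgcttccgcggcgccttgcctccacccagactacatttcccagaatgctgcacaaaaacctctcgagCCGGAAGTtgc
Mrps27, chr13:99344666-99344785, plus strand: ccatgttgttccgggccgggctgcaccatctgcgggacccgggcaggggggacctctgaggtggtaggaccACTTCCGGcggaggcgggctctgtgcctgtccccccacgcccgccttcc
Mrpl22, chr11:58171544-58171663, plus strand: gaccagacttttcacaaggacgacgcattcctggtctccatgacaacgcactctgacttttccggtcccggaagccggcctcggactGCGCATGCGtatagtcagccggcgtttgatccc
Mrpl32, chr13:14613038-14613157, minus strand: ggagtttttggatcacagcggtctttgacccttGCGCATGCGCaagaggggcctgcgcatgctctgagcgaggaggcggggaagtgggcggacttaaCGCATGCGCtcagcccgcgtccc

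Levels were compared between the genes per kilobase of annotated exon, as the mean over the 14 groups. Mrpl34, a large subunit gene of bacterial origin, had the highest level at 39.8 CPM per kilobase, followed by Mrpl14 (26.6), Mrpl38 (26.1), Mrpl52 (25.0) and the small subunit gene Mrps7 (22.9). Mrpl33 (0.960), Mrps25 (1.26), Mrpl19 (1.86), Mrpl48 (2.01) and Mrpl23 (2.50) had the lowest levels. Levels thus spanned 41.5-fold, with a median of 11.2 CPM per kilobase for the large and 6.70 for the small subunit. The 5 lowest have long annotated exons, from 4883 bases for Mrpl23 to 8152 for Mrpl48, and whether the liver uses all of those bases was not tested. Other genes share 69.8% of the exonic bases of Mrps25, 36.0% of Mrpl19, 8.68% of Mrpl48, 3.56% of Mrpl33 and 0% of Mrpl23. The part of this overlap in the levels was not tested. Summed over the 77 genes, the members stood at 1573 to 2222 CPM in a mouse, after TMM scaling.

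The first question was what WD did to these genes in each strain. PWK/PhJ had the most calls of the 7 strains. There, 48 of the 77 genes were lower on WD at an adjusted p below 0.05 (62.3%, where 14.5% of all genes tested were lower) and 1 was higher (15.1% of all genes were higher). The fitted log2 fold change was negative for 73 of the 77 genes, and its median was -0.17, a level 11.3% lower. Both subunits moved alike, with 33 of 50 large subunit genes lower (median -0.17) and 15 of 26 small subunit genes lower (median -0.17). Genes of bacterial origin (29 of 46 lower, median -0.18) and those specific to mitochondria (19 of 30 lower, median -0.17) did too. The differences were small for each gene, and among the 48 called genes they ran from -0.14 to -0.54 on the log2 scale.

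**Figure D1:**
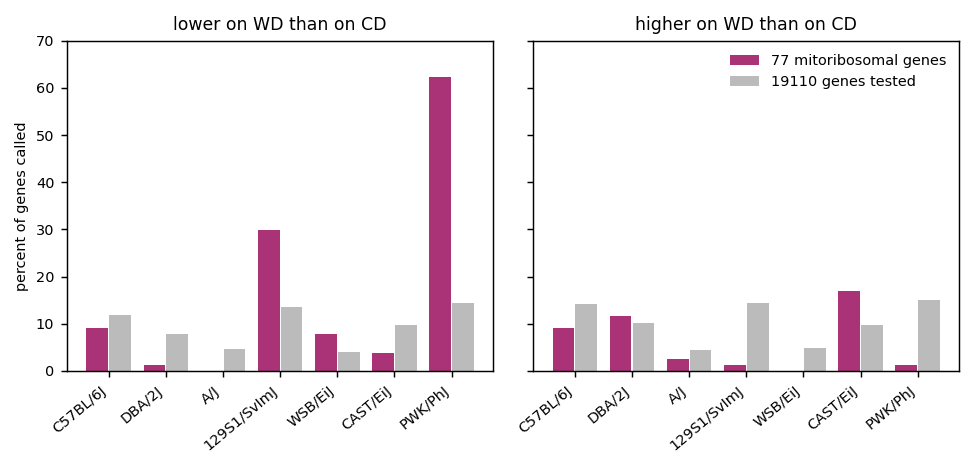
Percent of genes called lower (left) or higher (right) on WD than on CD in each strain, at an adjusted p below 0.05 by limma-voom, for the 77 mitoribosomal genes and for all 19110 genes tested. The PWK/PhJ bar for lower genes stands at 62.3% against 14.5%, and the 129S1/SvImJ bar at 29.9% against 13.6%.

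The mean log2 CPM over the 77 genes was taken in each mouse to show how single animals lay. In PWK/PhJ on CD it was 4.47 at the lowest, 4.53 at the median and 4.67 at the highest mouse, and on WD it was 4.26, 4.37 and 4.44. Every PWK/PhJ mouse on WD thus lay below every PWK/PhJ mouse on CD. The decrease was present in both cohorts, with a median over genes of -0.16 and 72 of 77 genes lower in cohort 1, and -0.19 and 72 of 77 in cohort 2.

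**Figure D2:**
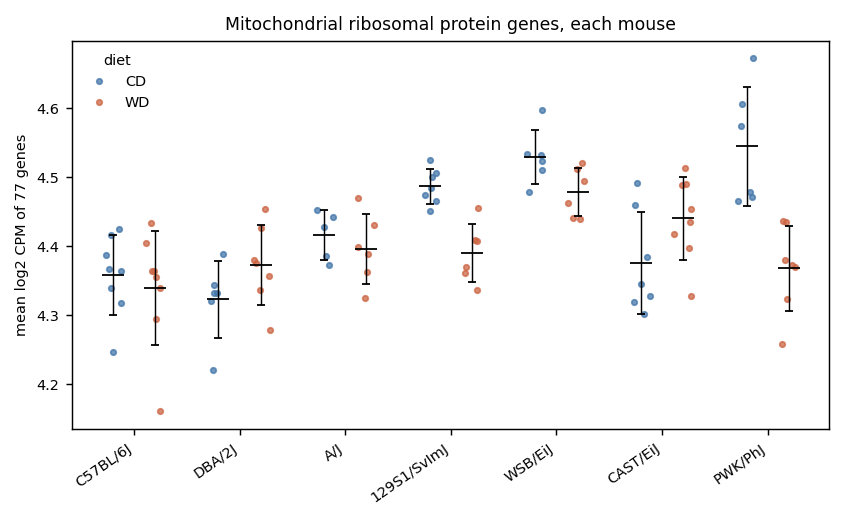
Mean log2 CPM of the 77 genes in each mouse (points), by strain and diet, with the mean and SD of each group in black. The PWK/PhJ mice on CD (4.47 to 4.67) and on WD (4.26 to 4.44) do not overlap, while the C57BL/6J groups (4.25 to 4.43 and 4.16 to 4.43) do.

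The size of the PWK/PhJ decrease is relative to the bulk of genes. The TMM factors rose in this strain from 0.987 to 1.04 on CD to 1.04 to 1.22 on WD. With read totals alone and no such factors, the median of all genes was 0.16 higher on WD and the median of the 77 genes was -0.00. Of the 77, 4 were then lower (against 5.4% of all genes) and 5 higher (against 28.4%). The share of lower genes was thus near the background under that setting, and that of higher genes below it. Relative to the median of all genes, the members stood at -0.16 under both scalings. Such factors shift all genes of a mouse alike, so this agreement was set in advance and is no test of the decrease. Without the PWK/PhJ mouse on CD that had few non-parenchymal markers, 33 were lower (against 11.9% of all genes). A fit of PWK/PhJ alone gave 30 (against 17.0%).

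Mrpl15, a large subunit protein with a bacterial counterpart (chr1:4773206-4785739), had the largest decrease in PWK/PhJ. It was at 59.5, 65.6 and 74.7 CPM (lowest, median and highest mouse) on CD and at 40.4, 45.8 and 49.99 CPM on WD, with no overlap. The log2 fold change was -0.54 with a standard error (SE) of 0.066 and an adjusted p of 2.43e-10 (limma-voom). Mrps26, which is specific to the mitochondrial small subunit (chr2:130563742-130568695), went from 13.9, 15.6 and 18.8 CPM to 10.9, 11.7 and 12.2 CPM, a log2 change of -0.44 (SE 0.081, adjusted p = 1.13e-05). All 7 WD mice lay below all 6 CD mice for both genes.

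Mrps12, whose product lies at the decoding site of the small subunit, was at 20.7, 22.7 and 29.5 CPM on CD and at 16.9, 17.6 and 19.3 CPM on WD in PWK/PhJ. Its log2 change was -0.38 (SE 0.083, adjusted p = 0.000168), again with no overlap. Mrpl38, a mitochondria-specific large subunit gene, was at 57.2, 62.4 and 72.0 CPM and then at 42.0, 47.6 and 56.96 CPM, with a log2 change of -0.41 (SE 0.117, adjusted p = 0.00493). The WD range ended just below the CD range. Mrps16, a small subunit protein of bacterial origin, had 14.8, 16.7 and 19.8 CPM on CD and 12.1, 13.5 and 14.9 CPM on WD, and 6 of the 7 WD mice lay below the CD mice (log2 change -0.34, SE 0.072, adjusted p = 0.000123). In all, 13 of the 77 genes had every WD mouse below every CD mouse in PWK/PhJ, which 6.02% of all genes tested also had.

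Mrpl16 was the exception in PWK/PhJ. This large subunit protein of bacterial origin (chr19:11770391-11774960) was at 22.8, 26.6 and 28.1 CPM on CD and at 28.5, 29.5 and 31.0 CPM on WD. All 7 WD mice lay above the CD mice, and the log2 change was 0.20 (SE 0.063, adjusted p = 0.0118).

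Several other measures moved with diet in PWK/PhJ, and their part in the result was not tested. The share of unmapped reads rose from 2.22 to 4.24% on CD to 5.48 to 8.73% on WD, while RIN ranges overlapped (8.3 to 9.1 and 7.6 to 9.2). The summed level of 9 hepatocyte markers was 118648 to 144743 CPM on CD and 77676 to 102492 CPM on WD, with 6 of 9 lower. That of 8 leukocyte markers went from 97.6 to 283 CPM to 259 to 362 CPM, with 7 of 8 higher. The 5 cholangiocyte markers went from 64.5 to 140 CPM to 159 to 524 CPM, with 4 of 5 higher, and 4 of 7 stellate cell markers were higher (136 to 219 and 297 to 606 CPM). No marker was at 0 in any group. Among the remaining lists, 2 of 6 Kupffer cell markers were higher, 1 of 6 T and NK cell markers was lower, 0 of 4 B cell markers were called, and of 5 endothelial markers 1 was higher and 1 lower. In whole liver, fewer cells of a type and less RNA per cell cannot be told apart.

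In 129S1/SvImJ, 23 of the 77 genes were lower on WD (29.9%, against 13.6% of all genes) and 1 was higher (against 14.5%). The median log2 change was -0.08, 59 of the 77 changes were negative, and the genes lower on WD included 14 of 50 large and 9 of 26 small subunit genes. The mean log2 CPM over the 77 genes was 4.45, 4.49 and 4.53 on CD and 4.34, 4.39 and 4.46 on WD, so the groups met only at their edges. With upper-quartile factors 13 were lower (against 8.6% of all genes), and with no scaling factors 9 (against 7.07%).

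In 129S1/SvImJ the 3 largest decreases were those of Mrpl47, Mrps31 and Mrps35. Mrpl47, a large subunit protein of bacterial origin, fell from 13.4, 14.4 and 15.1 CPM to 9.17, 10.6 and 11.4 CPM (log2 change -0.47, SE 0.081, adjusted p = 4.48e-06). Mrps31, a mitochondria-specific small subunit protein, fell from 38.2, 41.1 and 42.2 CPM to 29.6, 30.8 and 33.5 CPM (-0.39, SE 0.063, adjusted p = 9.41e-07). Mrps35, also specific to mitochondria, fell from 25.8, 26.7 and 28.9 CPM to 18.9, 21.3 and 24.5 CPM (-0.34, SE 0.065, adjusted p = 3.43e-05). In all 3 genes the 6 WD mice lay below the 7 CD mice. Of the exonic bases of Mrpl47, 24.2% are shared with Actl6a or Ndufb5 on the opposite strand, and the counting strand is not given in the sources used here.

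Mrpl15 (-0.32, SE 0.066) and the small subunit gene Mrps22 (-0.32, SE 0.073) followed, again with no overlap. Mrps6, of the small subunit, was the gene that was higher in 129S1/SvImJ, at 4.47, 5.66 and 6.11 CPM on CD and 5.89, 6.38 and 7.56 CPM on WD (0.22, SE 0.087, adjusted p = 0.0424). In 13 of the 77 genes every WD mouse was below every CD mouse, against 7.18% of all genes. Of the 23 genes lower in 129S1/SvImJ, 17 were also lower in PWK/PhJ (73.9% of the 23 and 35.4% of the 48), where 62.3% of all members were lower in PWK/PhJ. Over all genes, 37.4% of those lower in 129S1/SvImJ were also lower in PWK/PhJ. All 8 leukocyte markers were higher in this strain, with sums of 170 to 220 CPM on CD and 365 to 552 CPM on WD, and 6 of 9 hepatocyte markers were lower (103300 to 137583 and 81815 to 106406 CPM). Of the other lists, 5 of 6 T and NK cell, 3 of 6 Kupffer cell, 3 of 7 stellate cell, 1 of 5 endothelial and 1 of 5 cholangiocyte markers were higher, and the cholangiocyte sums did not overlap (21.3 to 43.1 and 59.6 to 102 CPM). Their part in the result was not tested.

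CAST/EiJ moved the other way. There, 13 of the 77 genes were higher on WD (16.9%, against 9.77% of all genes) and 3 were lower (against 9.73%), and 58 changes were positive, with a median of 0.08. Mrps16 led, with 8.28, 10.0 and 14.5 CPM on CD and 13.4, 13.9 and 14.2 CPM on WD (0.35, SE 0.076, adjusted p = 0.000306). Here the CD mice were widely spread, and the highest of them exceeded all WD mice. Mrpl14, a large subunit gene of bacterial origin, was at 19.0, 22.3 and 28.1 CPM on CD and at 24.8, 26.7 and 30.1 CPM on WD (0.26, SE 0.068, adjusted p = 0.00325). Mrpl22, whose product lines the exit tunnel of the large subunit, was at 16.0, 17.0 and 21.6 CPM and at 19.2, 21.2 and 23.8 CPM (0.24, SE 0.056, adjusted p = 0.000754).

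For Mrpl34 in CAST/EiJ, 7 of the 8 WD mice lay above all CD mice, with 17.0, 17.4 and 20.8 CPM on CD and 19.8, 21.6 and 23.5 CPM on WD (0.23, SE 0.066). Mrpl27, of the large subunit, had 8.95, 12.0 and 15.3 CPM and 12.3, 13.9 and 15.6 CPM (0.25, SE 0.082). Mrpl38 (-0.40, SE 0.109), Mrpl17 (-0.20, SE 0.067) and Mrpl15 (-0.19, SE 0.061) were the 3 that fell, and for Mrpl38 the CD mice reached from 51.0 to 175 CPM around a median of 62.9, with WD mice between 53.5 and 65.7 CPM. In CAST/EiJ 0 of the 77 had the diets fully apart, where 1.28% of all genes had every WD mouse below and 0.952% above the CD mice. The median change differed between cohorts, at -0.00 in cohort 1, which had a single CD mouse, 0.08 in cohort 3 and 0.06 in cohort 4. With no scaling factors 49 were higher (against 21.0% of all genes) and 1 lower (against 4.42%). A fit of CAST/EiJ alone gave 5 higher (against 7.15%) and 0 lower (against 6.28%), so higher genes were not above the background in that fit. Keeping genes with any count gave 8 higher (against 3.57%), and cohort as a covariate gave 9 (against 7.86%). The unmapped share was 8.93 to 13.9% on CD and 11.7 to 14.8% on WD, and its part in the result was not tested. Of the markers, 2 of 9 hepatocyte genes were lower, with sums that did not overlap (113529 to 135124 CPM on CD and 77536 to 98244 CPM on WD). Higher were 1 of 8 leukocyte, 1 of 6 Kupffer cell and 1 of 5 cholangiocyte markers. The leukocyte sums overlapped (147 to 197 and 175 to 280 CPM), and the cholangiocyte sums did not (22.5 to 34.3 and 34.6 to 62.3 CPM). The part of these markers in the result was not tested.

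**Figure D3:**
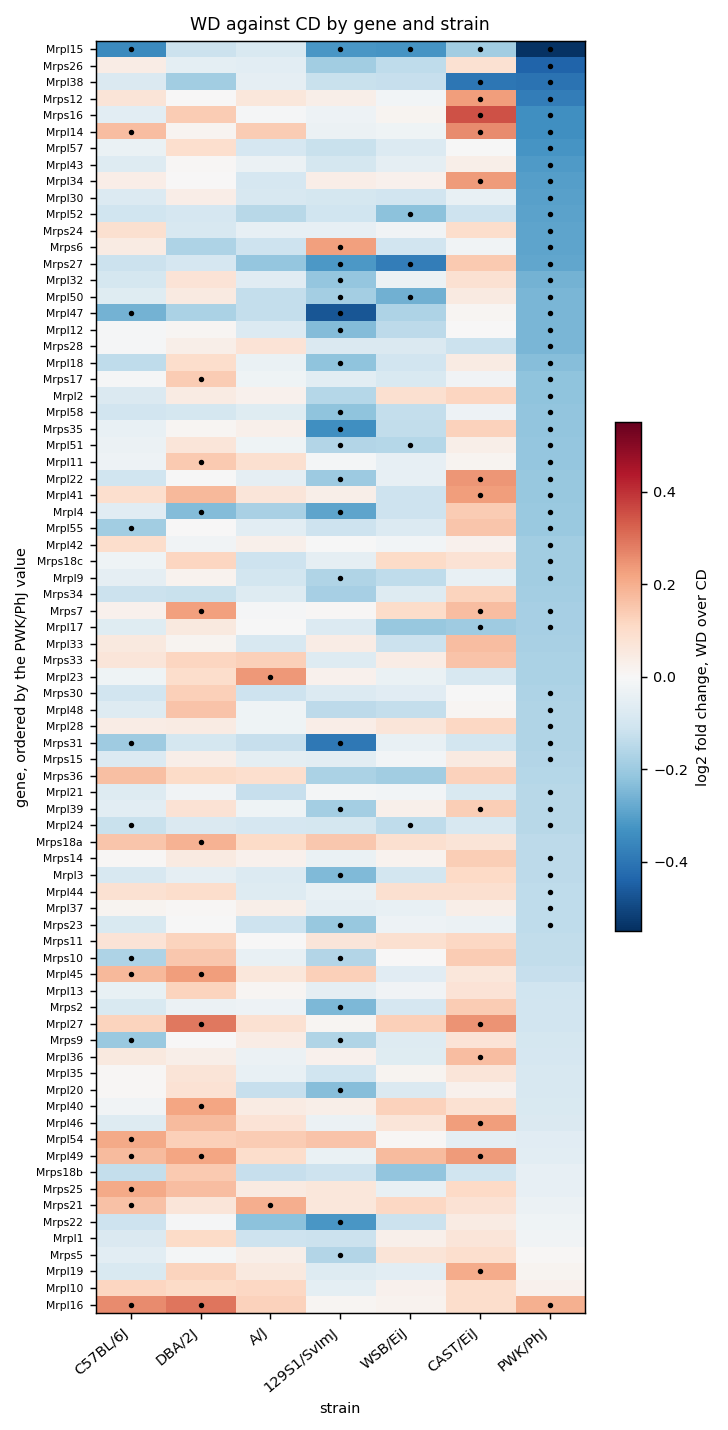
Log2 fold change of WD over CD for each of the 77 genes (rows, ordered by the PWK/PhJ value) in each strain (columns), with blue for lower and red for higher on WD, and a dot where the adjusted p was below 0.05. The PWK/PhJ column is blue in 73 of 77 rows, and the CAST/EiJ column is red in 58.

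In DBA/2J, 9 of the 77 genes were higher on WD (11.7%, against 10.2% of all genes) and 1 was lower (against 7.77%), so the share of higher genes was near the background and that of lower genes below it. Mrpl16 rose from 22.6, 23.8 and 27.9 CPM to 27.9, 29.2 and 34.0 CPM (0.29, SE 0.064, adjusted p = 0.000346). Mrpl27 rose from 15.2, 17.9 and 19.2 CPM to 19.5, 20.6 and 25.1 CPM, with no overlap (0.29, SE 0.077, adjusted p = 0.00422). Mrpl45, a protein that holds the ribosome at the inner membrane (0.23, SE 0.054), Mrps7 of the small subunit (0.23, SE 0.056) and Mrpl40 (0.22, SE 0.060) rose in 6 of 7 WD mice above all CD mice. Mrpl4, of the large subunit, was the gene that fell (-0.24, SE 0.069, adjusted p = 0.00818). Of 9 hepatocyte markers 3 were lower and 1 higher in DBA/2J, with sums that overlapped (115828 to 140029 CPM on CD and 100358 to 130698 CPM on WD). Among the others, 1 of 8 leukocyte markers was higher, and 2 of 5 endothelial and 1 of 5 cholangiocyte markers were lower. Their part in the result was not tested.

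C57BL/6J had 7 genes higher (9.09%, against 14.3% of all genes) and 7 lower (9.09%, against 11.9%), both below the background. Mrpl15 fell from 46.0, 51.4 and 62.1 CPM to 37.8, 41.7 and 45.5 CPM with no overlap (-0.35, SE 0.059, adjusted p = 2.37e-06), and Mrpl16 rose from 21.0, 26.3 and 30.1 CPM to 24.2, 32.5 and 35.8 CPM (0.26, SE 0.056, adjusted p = 0.000187). The next largest increases were in Mrps25, Mrpl54, Mrpl45 and Mrpl49 (0.18 to 0.21) and the next largest decreases in Mrpl47, Mrps9, Mrps31 and Mrpl55 (-0.26 to -0.19). Without the pair of C57BL/6J mice with high cholangiocyte markers, 12 were higher (against 16.7% of all genes). A fit of this strain alone gave 1 higher (against 8.58%) and 4 lower (against 7.79%). In C57BL/6J, 8 of 8 leukocyte markers were higher (sums of 202 to 476 CPM on CD and 378 to 643 CPM on WD), and 5 of 9 hepatocyte markers were lower, with sums that did not overlap (116727 to 136964 and 77890 to 97471 CPM). Their part in the result was not tested.

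WSB/EiJ had 6 genes lower (7.79%, against 3.97% of all genes) and 0 higher (against 4.97%). By limma, 17 of the 77 had an unadjusted p below 0.05 in either direction (22.1%, against 21.3% of all genes), and edgeR and DESeq2 also called 0 higher. Mrps27, a small subunit protein specific to mitochondria, fell from 16.1, 17.3 and 20.1 CPM to 12.2, 13.9 and 14.4 CPM (-0.38, SE 0.092, adjusted p = 0.00267). Mrpl15 fell from 68.9, 74.4 and 85.4 CPM to 55.8, 59.2 and 67.7 CPM (-0.32, SE 0.068, adjusted p = 0.000458), and Mrpl50 from 41.4, 46.7 and 48.5 CPM to 33.2, 38.2 and 40.0 CPM (-0.27, SE 0.054, adjusted p = 0.000292). None of the 3 overlapped between diets. All 6 genes lower in WSB/EiJ were also among the 48 lower in PWK/PhJ, as were 60.2% of all genes lower in WSB/EiJ. Keeping genes with any count gave 3 lower (against 1.26% of all genes). With no scaling factors 2 were lower (against 1.9%) and 3 higher (against 8.11%). In WSB/EiJ, 4 of 9 hepatocyte markers were lower (sums of 147095 to 183843 CPM on CD and 76843 to 112094 CPM on WD) and 3 of 8 leukocyte markers higher (133 to 169 and 155 to 265 CPM). The cholangiocyte sums did not overlap (17.2 to 26.7 and 27.7 to 32.2 CPM), with 0 of 5 markers called. The unmapped share was 2.44 to 6.44% on CD and 3.32 to 10.3% on WD, and the part of these measures in the result was not tested.

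In A/J, 2 genes were higher (2.60%, against 4.39% of all genes) and 0 were lower (against 4.64%), while 7 of the 77 had an unadjusted p below 0.05 by limma (9.09%, against 23.2% of all genes), and edgeR and DESeq2 also called 0 lower. Mrpl23, of the large subunit, had 12.1, 13.1, 13.5, 14.1 and 14.8 CPM in the 5 mice on CD, and 14.2, 16.1 and 17.3 CPM (lowest, median and highest) on WD (0.24, SE 0.077, adjusted p = 0.0346). Mrps21, of the small subunit, had 15.0, 15.4, 15.5, 15.5 and 16.2 CPM on CD, and 15.9, 18.0 and 19.3 CPM on WD (0.20, SE 0.067, adjusted p = 0.0433). In both genes 5 of 6 WD mice lay above the CD mice. Neither call was firm: with cohort as a covariate or with genes of any count kept, 0 were higher, and leaving out each CD mouse in turn gave 0 to 1. With no scaling factors 13 were higher (against 10.7% of all genes). Of 9 hepatocyte markers 4 were lower in A/J, with sums that did not overlap (189107 to 223267 CPM on CD and 137632 to 161450 CPM on WD). Higher were 1 of 8 leukocyte and 2 of 7 stellate cell markers. Their part in the result was not tested.

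Mrpl15 was the gene lower on WD in the most strains, 5 of 7. It was also lower on average in DBA/2J (57.1 ± 5.77 CPM on CD and 52.5 ± 3.10 on WD, mean ± SD, n = 6 and 7) and in A/J (63.0 ± 2.98 and 59.6 ± 4.39, n = 5 and 6), but neither passed the threshold (adjusted p = 0.221 and 0.537, limma-voom). Mrpl16 and Mrpl49, both of the large subunit, were higher in the most strains, 3 each. For Mrpl16 these were C57BL/6J, DBA/2J and PWK/PhJ, and for Mrpl49 C57BL/6J (0.18, SE 0.062), DBA/2J (0.22, SE 0.069) and CAST/EiJ (0.23, SE 0.065). Mrpl24, of the large subunit, fell by similar amounts in 3 strains, with log2 changes of -0.12 (C57BL/6J), -0.14 (WSB/EiJ) and -0.15 (PWK/PhJ).

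**Figure D4:**
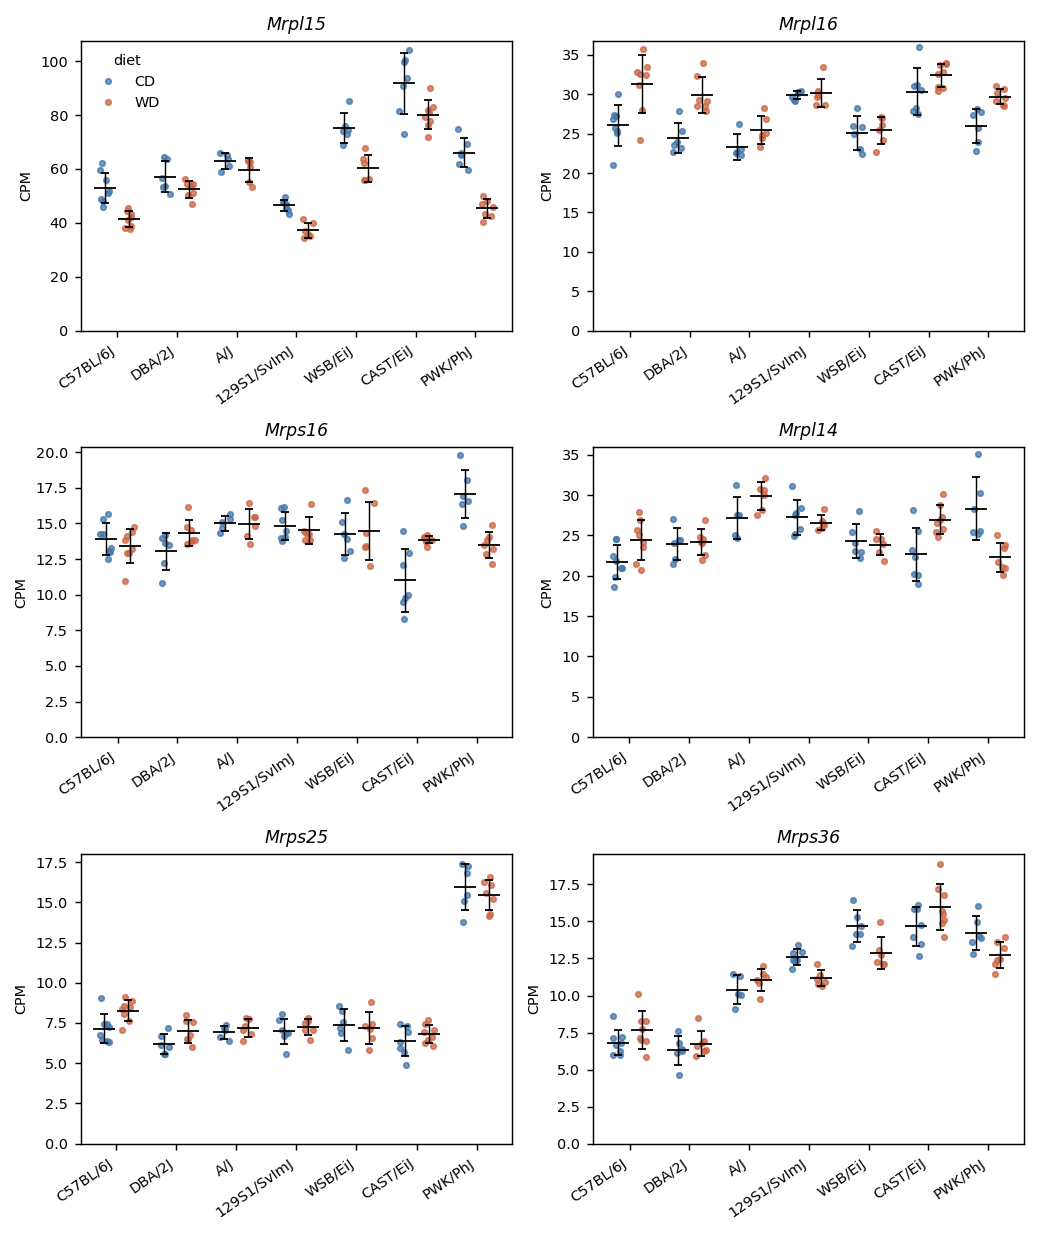
CPM in each mouse (points) for 6 genes by strain and diet, with the mean and SD of each group in black. Mrpl15 is lower on WD in 5 strains by test, Mrps16 is lower in PWK/PhJ and higher in CAST/EiJ, and Mrps25 in PWK/PhJ (13.8 to 17.4 CPM on CD) lies above all other strains on either diet.

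The second question was whether the diet effects differed between strains, which was tested directly. An F test over the 7 diet effects was past the threshold for 47 of the 77 genes (61.0%, against 37.5% of all genes). The 8 with the smallest p were Mrps16 (adjusted p = 1.98e-05), Mrpl14 (3.75e-05), Mrpl22 (5.79e-05), Mrpl50 (0.00019), Mrpl34 (0.000316), Mrps17 (0.000386), Mrps35 (0.000389) and Mrpl32 (0.000453). Mrps16, Mrpl14, Mrpl22 and Mrpl34 shared a pattern, lower in PWK/PhJ and higher in CAST/EiJ. For Mrpl14 in PWK/PhJ the levels were 25.2, 26.9 and 35.1 CPM on CD and 20.1, 21.7 and 25.1 CPM on WD (-0.34, SE 0.071). Altogether 8 genes (10.4%, against 1.09% of all genes) were called lower in PWK/PhJ and higher in CAST/EiJ, and the other 4 were Mrpl39, Mrpl41, Mrps7 and Mrps12. With no scaling factors the F test called 31, and the share over all genes under that setting is not given.

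Set against the mean of the other 6 strains, the diet effect was lower in PWK/PhJ for 31 genes (40.3%, against 8.70% of all genes), Mrps12 (-0.45, adjusted p = 0.000197), Mrps16 (-0.41, 9.63e-05) and Mrps26 (-0.39, 0.000994) among them. It was higher in CAST/EiJ for 20 genes (26.0%, against 7.59%), with Mrps16 (0.40, adjusted p = 0.000292) and Mrpl22 (0.34, 3.07e-05), and in DBA/2J for 11 (14.3%, against 3.88%), with Mrps7 (0.21, adjusted p = 0.0206). In 129S1/SvImJ it was lower for 6 (7.79%, against 2.94%), with Mrpl47 (-0.31, adjusted p = 0.0203) and Mrps31 (-0.27, 0.00769). These contrasts share mice, since each strain is also part of the mean for the others. With no scaling factors the counts were 8 in PWK/PhJ and 0 in DBA/2J, and the shares over all genes under that setting are not given. The effect of Mrpl24 was among the 30 for which a difference was not shown (adjusted p = 0.925).

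The third question was how the strains differed on CD. The F test over the 7 strains was past the threshold for all 77 genes, but also for 93.7% of all genes, so being different between strains was not particular to these genes. The directions were uneven. Against the mean of the other 6 strains on CD, the members were mostly higher in WSB/EiJ (41 higher, against 25.4% of all genes, and 10 lower, against 23.8%), in PWK/PhJ (37 higher, against 30.2%, and 13 lower, against 28.4%) and in 129S1/SvImJ (35 higher, against 23.6%, and 10 lower, against 20.6%). They were mostly lower in DBA/2J (7 higher, against 22.9%, and 36 lower, against 19.4%), in C57BL/6J (7 higher, against 29.5%, and 34 lower, against 28.4%) and in CAST/EiJ (19 higher, against 32.4%, and 34 lower, against 31.5%). A/J was even (14 higher, against 20.5%, and 16 lower, against 16.2%).

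Medians over the 77 genes on CD lay between -0.12 in DBA/2J and 0.12 in PWK/PhJ on the log2 scale. Genes went both ways within a strain, and the median size of the difference regardless of sign was 0.11 in A/J and C57BL/6J, 0.12 in 129S1/SvImJ, 0.13 in DBA/2J, 0.17 in WSB/EiJ, 0.18 in PWK/PhJ and 0.20 in CAST/EiJ. With no scaling factors some directions turned: C57BL/6J had 39 higher and 10 lower, WSB/EiJ had 11 higher and 26 lower, and A/J 2 higher and 36 lower. The TMM factors on CD were 0.974 to 1.22 in C57BL/6J, 0.810 to 0.906 in WSB/EiJ and 0.880 to 0.945 in A/J. Dropping them shifts all genes of a library together. Shares over all genes are not given for these counts, so they do not show a turn particular to the members. The part of the unmapped share in the strain differences was not tested. The WSB/EiJ mice came from cohorts 6 and 7, which held no other strain, so strain and cohort cannot be told apart there. The other strains shared cohorts only in part, and the part of cohort in the strain differences was not tested.

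Single genes differed far more than the medians. Mrps25, a mitochondria-specific small subunit gene (chr6:92169525-92184033), was at 13.8, 16.2 and 17.4 CPM in PWK/PhJ on CD, above every mouse of the other strains, whose group means were 6.20 to 7.38 CPM. The log2 difference from the other strains was 1.23 (SE 0.055, adjusted p = 6.91e-35), and on WD it was 1.09. Of the exonic bases of Mrps25, 69.8% are shared with Nr2c2 on the opposite strand, so reads of both genes cannot be told apart where strand was not used. Mrps6 (0.89, SE 0.059) and Mrps14 (0.69, SE 0.039), both of the small subunit, were also higher in PWK/PhJ on CD, and Mrps17 was lower, with 23.2, 25.7 and 27.0 CPM against group means of 37.3 to 47.1 CPM elsewhere (-0.68, SE 0.035, adjusted p = 5.41e-31).

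CAST/EiJ had the highest Mrpl15 (72.8, 93.7 and 104 CPM on CD, log2 difference 0.62, SE 0.049) together with higher Mrpl20 (0.61, SE 0.045) and Mrpl47 (0.54, SE 0.056). It also had the lowest Mrpl50, at 22.6, 27.3 and 32.5 CPM against group means of 44.99 to 52.1 CPM (-0.77, SE 0.040, adjusted p = 1.04e-30), and lower Mrps6 (-0.56) and Mrpl42 (-0.55). In WSB/EiJ, Mrps11 stood out at 10.4, 10.7 and 11.6 CPM against group means of 5.83 to 8.26 CPM (0.63, SE 0.054). Mrpl3 was also higher there (0.47, SE 0.042). In 129S1/SvImJ, Mrpl27 was higher (0.54, SE 0.057) and Mrpl15 lower (-0.51, SE 0.049). DBA/2J had lower Mrpl35 (-0.64, SE 0.044) and Mrps9 (-0.52, SE 0.045). In A/J, Mrpl9 was higher (0.37, SE 0.050) and Mrps12 lower (-0.49, SE 0.076).

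Mrps36, the gene that is no ribosome subunit, split the strains on CD into low and high. It was at 6.29 ± 0.978 CPM (SD, n = 6) in DBA/2J and 6.82 ± 0.867 (n = 8) in C57BL/6J, which did not differ beyond their spread. It then was at 10.4 ± 0.990 (n = 5) in A/J, 12.6 ± 0.531 (n = 7) in 129S1/SvImJ, 14.2 ± 1.12 (n = 6) in PWK/PhJ, 14.7 ± 1.33 (n = 7) in CAST/EiJ and 14.7 ± 1.07 (n = 6) in WSB/EiJ, and the last 3 also lay within each other's spread. Against the other strains the log2 difference was -0.92 (SE 0.073) in DBA/2J and -0.78 (SE 0.061) in C57BL/6J. By diet, Mrps36 passed the threshold in none of the strains (limma-voom adjusted p between 0.0773 and 0.567). The F test for a difference between strains in its diet effect was past the threshold (adjusted p = 0.00572). It has processed pseudogenes, Mrps36-ps1 to Mrps36-ps3, none with more than 13 counts in any mouse.

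**Figure D5:**
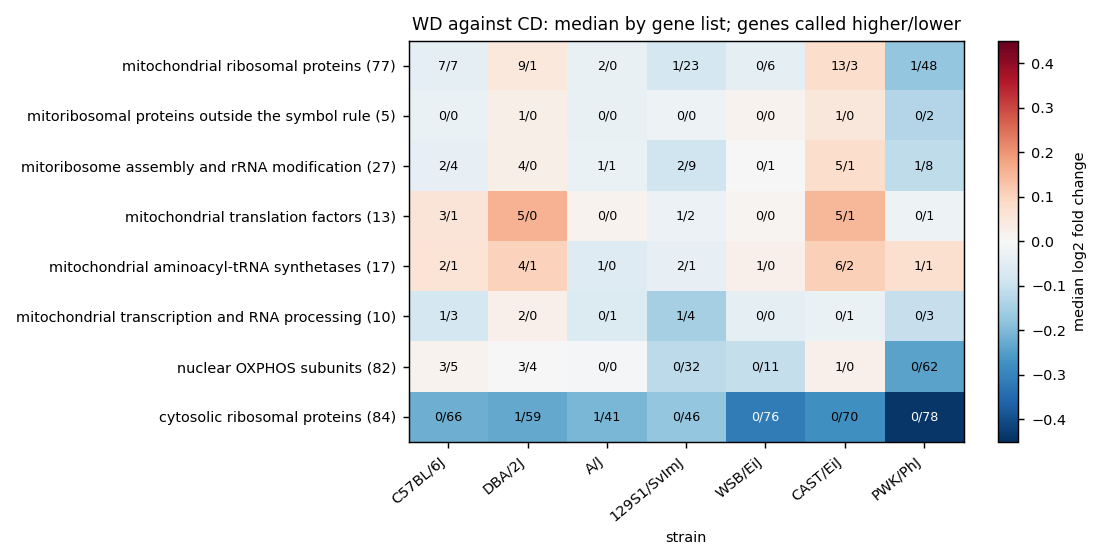
Median log2 fold change of WD over CD (colour) for the 77 mitoribosomal genes and 7 related gene lists, with the number of genes tested in parentheses, and in each cell the number called higher and lower. In PWK/PhJ the mitoribosomal (1/48), OXPHOS (0/62) and cytosolic ribosomal (0/78) lists hold most of the lower calls, and the cytosolic ribosomal list is blue in all 7 strains.

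On WD the PWK/PhJ picture was different. Against the other 6 strains on WD, 19 members were higher (against 33.2% of all genes) and 31 lower (against 29.8%), and the median went from 0.12 on CD to -0.04 on WD. All 19 were among the 37 higher on CD, and 3 genes turned from higher to lower, namely Mrpl14 (0.21 on CD and -0.22 on WD), Mrps12 (0.25 and -0.20) and Mrps26 (0.18 and -0.20). In CAST/EiJ, Mrpl22 turned from lower (-0.17) to higher (0.17). With no scaling factors, 39 were higher and 14 lower in PWK/PhJ on WD. That setting shifts all genes of a library together, and the shares over all genes are not given for it.

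The other parts of the mitochondrial translation system were followed as lists. For reference, 14.5% of all genes tested were lower on WD in PWK/PhJ and 15.1% were higher. In PWK/PhJ, 2 of 5 mitoribosomal proteins with other symbols were lower, Chchd1 (-0.26, SE 0.056) and Aurkaip1 (-0.21, SE 0.047), and so were 8 of 27 genes for ribosome assembly and rRNA modification, with 1 higher. Rbfa, which matures the small subunit, went from 20.6, 21.6 and 25.9 CPM to 14.8, 16.3 and 19.7 CPM (-0.42, SE 0.085), and Mpv17l2, an assembly factor, from 13.3, 14.2 and 17.3 CPM to 9.02, 11.8 and 12.4 CPM (-0.35, SE 0.082). Of 13 translation factors 1 was lower, Mtif3 (-0.24, SE 0.073), and of 17 mitochondrial aminoacyl-tRNA synthetases 1 was higher, Wars2 (0.30, SE 0.081), and 1 lower, Fars2 (-0.62, SE 0.081). The difference between these lists and the 77 structural genes was not tested. Of 10 genes of mitochondrial transcription and RNA processing 3 were lower, with Tfam, the main mitochondrial DNA packaging factor, at -0.20 (SE 0.065).

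Subunits of the respiratory chain and ATP synthase encoded in the nucleus were lower for 62 of 82 genes in PWK/PhJ (median -0.24, against 14.5% of all genes). The counts were 32 of 82 in 129S1/SvImJ (-0.12, against 13.6%) and 11 of 82 in WSB/EiJ (-0.11, against 3.97%). In DBA/2J, 3 of the 82 were higher (against 10.2% of all genes) and 4 lower (against 7.77%). In CAST/EiJ 1 was higher (against 9.77%) and 0 were lower (against 9.73%). Cytosolic ribosomal proteins differed from the mitochondrial ones in that most were lower in nearly every strain, with medians of -0.18 to -0.44. The counts ran from 41 of 84 in A/J (against 4.64% of all genes) and 46 in 129S1/SvImJ (against 13.6%) to 78 of 84 in PWK/PhJ (against 14.5%). In CAST/EiJ, 70 of the 84 were lower while 13 of the 77 mitoribosomal genes were higher.

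CAST/EiJ and DBA/2J had calls among the soluble factors, mostly higher. Over all genes tested, 9.77% were higher and 9.73% lower in CAST/EiJ, and 10.2% higher and 7.77% lower in DBA/2J. Of 13 translation factors, 5 were higher in each strain and 1 was lower in CAST/EiJ (Mrrf, the ribosome recycling factor, -0.15, SE 0.053), and Gfm1 (0.24 in CAST/EiJ and 0.26 in DBA/2J) and Gfm2 (0.27 and 0.22), the elongation and recycling factors, were among both. Of 17 synthetases, 6 were higher and 2 lower in CAST/EiJ, and 4 were higher and 1 lower in DBA/2J, with Pars2 at 0.44 (SE 0.120). Of the 27 assembly genes, 5 were higher in CAST/EiJ, Rpusd3 (0.54, SE 0.178) and Mrm2 (0.51, SE 0.097) among them, and 1 was lower, Ddx28 (-0.36, SE 0.113), while 4 were higher in DBA/2J, with Mettl15 at 0.79 (SE 0.169). In 129S1/SvImJ 9 of the 27 were lower (against 13.6% of all genes), with Rbfa at -0.39 (SE 0.082), and 2 higher (against 14.5%).

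The rRNAs of the mitochondrial ribosome, mt-Rnr1 and mt-Rnr2, were lower in DBA/2J and 129S1/SvImJ. In DBA/2J, where the members' median was 0.05, mt-Rnr1 went from 694, 900 and 1096 CPM to 488, 586 and 642 CPM (log2 change -0.61, SE 0.124) and mt-Rnr2 from 1610, 1906 and 2590 CPM to 1122, 1226 and 1325 CPM (-0.70, SE 0.123). In 129S1/SvImJ both were lower (-0.36, SE 0.122, and -0.33, SE 0.121), and in PWK/PhJ neither was called. Libraries were made with an mRNA kit, so the share of the rRNA that they hold was not tested. Of all 15 genes in the mitochondrial list, 2 were higher (against 15.1% of all genes) and 2 lower (against 14.5%) in PWK/PhJ.

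The transcription factors and coactivators named for these genes were a list of 9. Over all genes tested, 7.77% were lower in DBA/2J, 11.9% in C57BL/6J and 4.64% in A/J. The shares were 13.6% in 129S1/SvImJ, 9.73% in CAST/EiJ and 14.5% in PWK/PhJ. In DBA/2J, Nrf1 (-0.38, SE 0.083), Gabpb1 (-0.39, SE 0.074) and Pprc1 (-0.57, SE 0.158) were lower together with Yy1 (-0.19, SE 0.068), while the members' median was 0.05. Nrf1 was also lower in C57BL/6J (-0.24) and A/J (-0.30), and Gabpb1 in A/J (-0.39). In 129S1/SvImJ, Nrf1 (-0.44, SE 0.084) and Gabpb1 (-0.37, SE 0.076) were also lower, together with Gabpa and Yy1, and Myc was higher (2.14, SE 0.583). In CAST/EiJ, Ppargc1a (-1.11, SE 0.221) and Ppargc1b (-0.62, SE 0.171) were lower together with Yy1, while the members' median was 0.08. In PWK/PhJ 1 of the 9 was called, Gabpb1 (-0.26, SE 0.068). Among the 43 genes lower in PWK/PhJ that had a promoter sequence, 17 held at least 1 of the 3 motifs (39.5%), and among the other 25 it was 9 (36.0%).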

How the data were processed

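Liver RNA libraries of 93 mice were made by the authors with an mRNA kit and sequenced on a BGISEQ-500. Reads were mapped to the C57BL/6J genome with STAR, version 2.7.1a per the submitters' processing notes, which also name GRCm38 and mm10. The annotation release and the counting strand are not given in the sources used here. The authors deposited raw counts per gene, with no normalization, plus 4 summary lines that were used only for shares of unmapped reads. All columns were used.

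Symbols and positions came from GENCODE vM21 (GRCm38), which matched 53360 of 53465 genes. Low genes were removed by filterByExpr at a minimum count of 10. The voom weights and linear model of limma 3.58.1 used TMM factors from edgeR 4.0.16 (both run in R 4.3.3), and the model held 14 group means. P-values were adjusted by Benjamini-Hochberg over all 19110 genes, at a threshold of 0.05. Adjusted p-values come from this limma-voom fit unless another tool is named. Fits were tested on simulated data. Log2 CPM in single mice used a prior count of 2. The lowest count of any member in any mouse was 158. The spread between mice includes counting error, and the part of counting error in it was not tested. Mice were housed several to a cage per the paper, but which of them shared a cage or litter is not given. The model held no term for cage or litter and took each mouse as independent. P-values set a difference against the spread between mice, and the part of shared cages in that spread was not tested.

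The genes, the related lists and the tests were chosen with earlier results of these data known. Genes named were those past the threshold with the largest changes (up to 5 in each direction by diet, up to 3 by strain on CD), the 8 with the smallest p of the F test, the 5 highest and lowest levels, any gene below the count rule, and those called in the most strains. From other lists up to 3 with the largest change were named. Mrpl24, genes given as turning between diets, genes called in opposite directions, Yy1, Gabpa, Mtif3, Gfm1, Gfm2, Mrrf, Ddx28, Chchd1, Aurkaip1 and Tfam were chosen after their values were seen. Alternatives were edgeR's quasi-likelihood test, DESeq2 1.42.0, upper-quartile factors, other filters, cohort or RIN as a covariate, separate fits, quality weights and leaving out A/J mice on CD. No scaling factors and leaving out 3 single mice were added after seeing the data. Mtrfr, Prorp and Tf were not matched, and Slirp, Cox7b2, Cox8c, Rpl10l and Rpl39l did not pass the filter.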

Additional observations from a re-analysis of the deposited data

Results flagged for a closer look

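Among the 100 groups examined (the mean over the 77 genes in each group, and each gene named for its diet effect in both groups of that strain), 3 had a mouse far from the rest of its group, where chance alone gives about 1 in 20 groups. In C57BL/6J on CD the highest mouse had 9.04 CPM of Mrps25 and the highest mouse had 22.8 CPM of Mrpl54, against group medians of 7.00 and 15.2 CPM. In WSB/EiJ on WD the lowest mouse had 12.2 CPM of Mrps27, against a median of 13.9 CPM.

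The diet effect differed between strains by the F test for the 8 genes named for it, with limma-voom adjusted p-values of 1.98e-05 for Mrps16, 3.75e-05 for Mrpl14, 5.79e-05 for Mrpl22, 0.00019 for Mrpl50, 0.000316 for Mrpl34, 0.000386 for Mrps17, 0.000389 for Mrps35 and 0.000453 for Mrpl32.

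The pseudogene Mrpl48-ps, which is no member, had reads that differed by strain. Its median count was 157 in CAST/EiJ, 147 in PWK/PhJ and 117 in DBA/2J, but 19 in A/J, 19 in 129S1/SvImJ, 17.5 in WSB/EiJ and 6.5 in C57BL/6J, and the lowest mouse of the first 3 strains (93 counts) was above the highest of the other 4 (29 counts). Mrpl48 itself was lower in PWK/PhJ on CD than in the other strains (log2 difference -0.40) and higher in C57BL/6J (0.42), and whether reads of one are counted on the other was not tested.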

How the results depend on the processing

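Counts of called members were recomputed under each alternative, and 535 of 590 stayed within 1.5 times the count reported, while 55 moved. Settings that left out mice of a single strain could change the diet calls in other strains only slightly. Part of the agreement here and below was thus set in advance. Of 1403 values of named members, 1364 kept their direction and their side of the threshold, 39 kept only their direction, and 0 turned. Of 134 median changes of the members, 7 moved by more than the spread between replicates. The median in 129S1/SvImJ was -0.02 with upper-quartile factors. Without scaling factors the medians were 0.10 in A/J, 0.03 in WSB/EiJ, 0.20 in CAST/EiJ and -0.00 in 129S1/SvImJ and PWK/PhJ. In CAST/EiJ it was -0.00 within cohort 1 and 0.05 with cohort as a covariate. Dropping the scaling factors, an alternative chosen after seeing the data, moved the most. By diet it gave 13 higher in A/J (against 10.7% of all genes). In 129S1/SvImJ it gave 3 higher (against 17.4%) and 9 lower (against 7.07%), and in WSB/EiJ 3 higher (against 8.11%) and 2 lower (against 1.9%). In CAST/EiJ it gave 49 higher (against 21.0%) and 1 lower (against 4.42%), and in PWK/PhJ 5 higher (against 28.4%) and 4 lower (against 5.4%). The F test then called 31, the diet effect was lower in PWK/PhJ for 8 and higher in DBA/2J for 0. On CD it gave 39 higher and 10 lower in C57BL/6J, 2 higher and 36 lower in A/J, 5 lower in 129S1/SvImJ, 11 higher and 26 lower in WSB/EiJ and 7 lower in PWK/PhJ, and on WD 39 higher and 14 lower in PWK/PhJ. These factors rescale whole libraries, so all genes shift together. For the F test, the diet effects against other strains and the strain differences, shares over all genes under the alternatives are not given. Upper-quartile factors gave 3 higher and 13 lower in 129S1/SvImJ, 7 with a higher effect in DBA/2J, 3 with a lower effect in 129S1/SvImJ and 13 higher in C57BL/6J on CD. A fit for each strain alone, with fewer samples, gave 1 higher (against 8.58% of all genes) and 4 lower (against 7.79%) in C57BL/6J. It gave 2 lower in DBA/2J (against 10.8%), 1 lower in A/J (against 7.81%) and 4 higher in 129S1/SvImJ (against 23.3%). In CAST/EiJ it gave 5 higher (against 7.15%) and 0 lower (against 6.28%), and in PWK/PhJ 30 lower (against 17.0%). Keeping genes with any count, where more genes are tested, gave 0 higher in A/J and in 129S1/SvImJ, 3 lower in WSB/EiJ, 8 higher in CAST/EiJ, and a higher effect for 13 in CAST/EiJ and 5 in DBA/2J. Cohort as a covariate gave 0 higher in A/J, DESeq2 2 higher in 129S1/SvImJ, and at least 10 counts in every mouse 3 higher there. Quality weights gave 4 lower in A/J, 3 higher in 129S1/SvImJ and 18 with a lower effect there. The cause was not tested for the moves under any of these settings.

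Leaving out each A/J mouse on CD in turn gave 0 to 1 higher on WD in A/J and 9 to 15 higher on CD, with the 9 coming without replicate 1. Leaving out 3 mice was also chosen after seeing the data. Without PWK/PhJ CD replicate 5, 33 were lower by diet in PWK/PhJ, 7 higher by diet in C57BL/6J and 17 higher on CD in A/J, and without C57BL/6J CD replicate 2 and WD replicate 3, 12 were higher in C57BL/6J and 2 in 129S1/SvImJ. No paired analysis was possible because the replicate numbers only name the mice of a group in accession order and do not link mice across groups.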
